A study of Caenorhabditis elegans with 12 samples.

Results

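The cadmium-responsive (*cdr*) genes and the metallothionein (*mtl*) genes of *Caenorhabditis elegans* were followed in 12 RNA libraries of whole day 1 adults. The genes were chosen by symbol (*cdr-1*, *cdr-2*, *cdr-4*, *cdr-5*, *cdr-6*, *cdr-7*, *mtl-1* and *mtl-2*), and the set was picked on the heat response of *cdr-4*, so the heat shock values of all members, and every value of *cdr-4*, are given as a description with no p, and nothing is read from a count of calls that holds them. Of the 8 symbols, 7 were found among 46934 genes, and all 7 passed the filter on low counts, as 17946 genes did. No row with the symbol *cdr-5* was used here, and whether that gene is listed under another symbol was not established, so sums over the family below cover the 5 *cdr* genes found. The 4 groups, with 3 libraries each, were *hsf-1*(*sy441*) mutants after heat shock (35 °C for 30 min, RNA taken after 1 h back at 20 °C), *hsf-1*(*sy441*) mutants kept at 20 °C, wild type (N2) after the same heat shock, and wild type kept at 20 °C. All animals were grown at 20 °C on *E. coli* OP50. HSF-1 is the transcription factor that drives the heat shock response, and *sy441* is a loss-of-function allele that leaves a truncated HSF-1 without much of its transactivation domain, not a null.

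Metallothioneins are small cysteine-rich proteins that bind cadmium, zinc and copper. In *C. elegans* both metallothionein genes are induced by cadmium in intestinal cells, and *mtl-1* is also active in the pharynx without added metal. The CDR proteins are named for *cdr-1*, whose transcription is induced by cadmium in the intestine, and the members differ in how they respond to metals and other stressors.

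Total counts ran from 68188334 to 109248499 per library. Genes of the heat shock response summed to 1518 to 6559 CPM (a TMM-scaled read count relative to the size of its library) in heat-shocked mutants, against 127 to 198 CPM in mutants at 20 °C, and to 3158 to 8181 CPM in heat-shocked wild type, against 120 to 169 CPM in wild type at 20 °C. *hsf-1* itself had 76.6 to 129 CPM in heat-shocked mutants and 95.8 to 126 CPM in heat-shocked wild type; its transcript level does not check a truncating allele. In each group 1 library stood lowest on the second principal component (17.0% of the variance): replicate 1 of the heat-shocked mutants, of the mutants at 20 °C and of heat-shocked wild type, and replicate 3 of wild type at 20 °C. Reads of rRNA genes made up 7.34% and 7.41% of the counts in the mutant replicates 1 and 1.01% to 4.21% elsewhere. Since RNA came from whole animals, fewer cells of a type and less RNA per cell cannot be told apart.

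*cdr-4* was the member with the largest heat response in these libraries. It had 79.0, 72.8 and 79.7 CPM in heat-shocked mutants, against 26.5, 12.9 and 25.5 CPM in mutants at 20 °C. In wild type it had 262, 226 and 228 CPM after heat shock, against 9.56, 15.97 and 31.1 CPM at 20 °C. Heat-shocked and control libraries did not overlap in either genotype, and the heat-shocked libraries of a group lay close together while the controls were spread. Between heat shock and control, 12.04% of all genes tested had no overlap in mutants and 14.0% in wild type, in either direction. The heat shock difference was 1.84 on the log2 scale in mutants (SE 0.37, 3.57-fold) and 3.66 in wild type (SE 0.39, 12.6-fold). The difference between these heat responses was -1.82 (SE 0.51), again a description.

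The comparison of genotypes asks whether the level of a gene differs between the *sy441* strain and N2. An effect of the allele cannot be told apart here from other differences between the strains, in background or stage. After heat shock *cdr-4* was lower in mutants, at 77.2 ± 3.8 CPM, against 239 ± 20 CPM in wild type (SD, n = 3 each), with no overlap between the groups (log2 fold change -1.63, SE 0.36). There 29.2% of all genes tested had no overlap between genotypes. The heat-shocked and control libraries both entered the choice of *cdr-4*, so no p is given. At 20 °C it averaged 21.6 ± 7.6 CPM in mutants and 18.9 ± 11.04 CPM in wild type, a difference of 0.20 on the log2 scale (SE 0.36). The difference after heat shock stayed between -1.76 and -1.56 on the log2 scale over all alternatives.

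**Figure D1:**
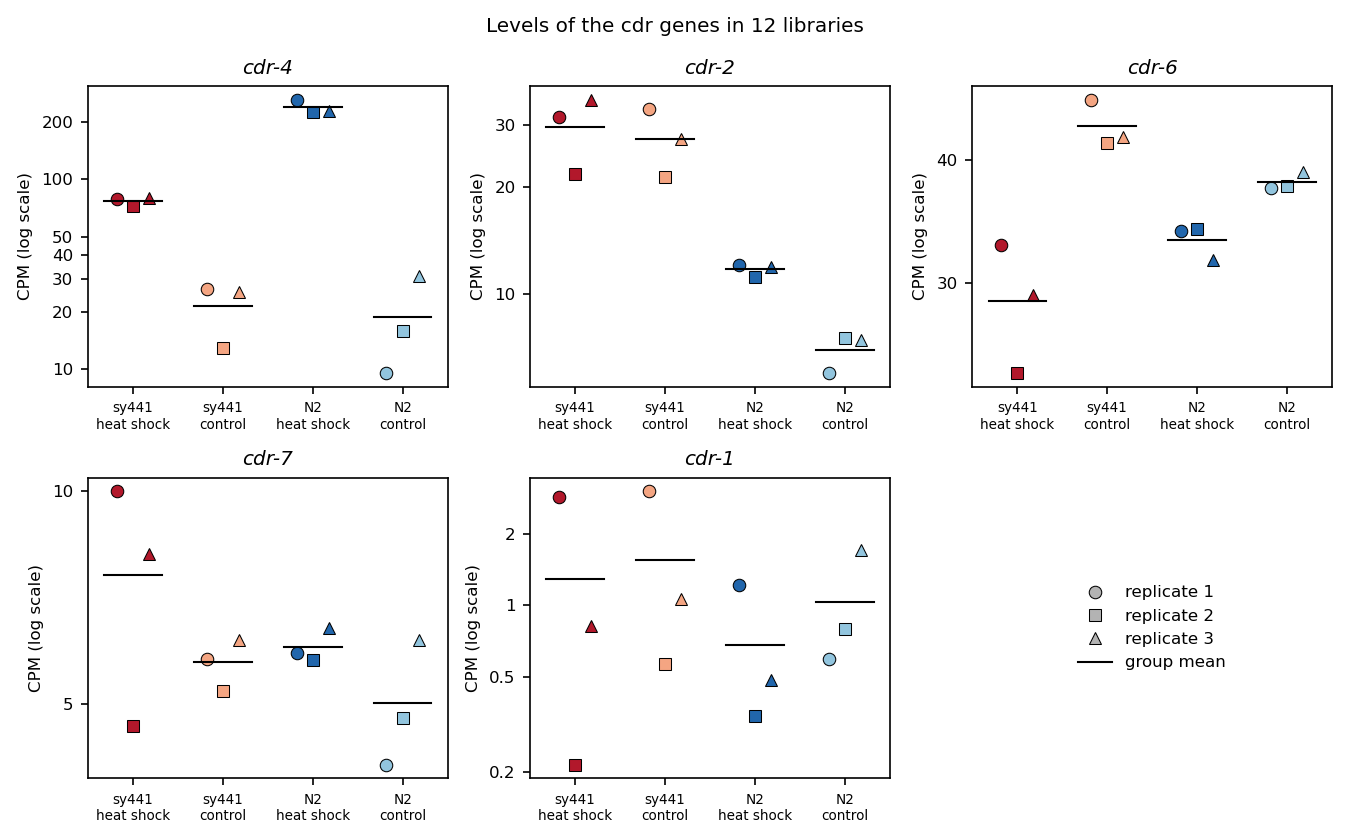
CPM (log scale) of the 5 *cdr* genes in the 12 libraries, by group, with 1 point per library, its shape giving the replicate number, and a line at the group mean. *cdr-4* lay at 72.8 to 79.7 CPM in heat-shocked mutants and at 226 to 262 CPM in heat-shocked wild type, and *cdr-2* was higher in every mutant library than in any wild type library.

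*cdr-4* changed the makeup of the family. It gave 50.6% to 58.9% of the summed CPM of the 5 *cdr* genes in heat-shocked mutants, against 15.8% to 24.9% in mutants at 20 °C. In wild type its share was 81.5% to 83.2% after heat shock, against 16.6% to 36.4% at 20 °C. The summed level was 124 to 156 CPM in heat-shocked mutants and 277 to 315 CPM in heat-shocked wild type.

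*cdr-2* was the member whose level differed between the genotypes at both temperatures. It had 33.2, 21.4 and 27.3 CPM in mutants at 20 °C, against 6.01, 7.52 and 7.46 CPM in wild type at 20 °C. After heat shock it had 31.4, 21.7 and 35.2 CPM in mutants, against 12.1, 11.2 and 11.96 CPM in wild type. Every mutant library was above every wild type library. Between genotypes 29.8% of all genes tested at 20 °C and 29.2% after heat shock had no overlap, in either direction. The mutants were 3.90-fold higher at 20 °C (log2 fold change 1.96, SE 0.24, adjusted p = 0.000896 in edgeR's quasi-likelihood test with Benjamini-Hochberg adjustment over 17946 genes) and 2.51-fold higher after heat shock (1.33, SE 0.24, edgeR adjusted p = 0.0110). The call at 20 °C held under all 16 alternatives (edgeR or DESeq2 adjusted p 5.0e-12 to 0.0163). After heat shock it was lost without replicate 1, 2 or 3 of heat-shocked wild type or replicate 3 of the heat-shocked mutants (edgeR adjusted p 0.0614, 0.0554, 0.0603 and 0.0534).

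The heat shock difference of *cdr-2* was 0.11 on the log2 scale in mutants (SE 0.23) and 0.75 in wild type (SE 0.23). In wild type, where 14.0% of all genes tested had groups without overlap, those of *cdr-2* did not overlap. Its interaction of genotype and heat shock was -0.64 on the log2 scale (SE 0.33) and did not pass the test (edgeR adjusted p = 1). Of 8 markers of the intestine, 3 (*ges-1*, *act-5* and *ifb-2*) were also higher in mutants at 20 °C and 1 (*ifb-2*) after heat shock, while others did not pass the test, among them *pept-1* (-0.35 on the log2 scale at 20 °C) and *cpr-1* (-0.41 after heat shock). Their summed level was 847 to 920 CPM in mutants and 448 to 745 CPM in wild type at 20 °C, and 679 to 791 CPM in mutants and 492 to 650 CPM in wild type after heat shock. Each of the 8 was above 0 in every library, the lowest value being 1.87 CPM of *elt-2*. Of 4 markers of body wall muscle, 1 (*myo-3*) was higher in mutants at both temperatures; the 4 summed to 1226 to 1852 CPM in mutants and 471 to 902 CPM in wild type at 20 °C, and to 1486 to 1614 CPM in mutants and 498 to 962 CPM in wild type after heat shock. Of 4 sperm markers, 4 were higher in mutants at 20 °C (summing to 24.2 to 53.6 CPM in mutants and 0.781 to 3.29 CPM in wild type) and 3 after heat shock (20.1 to 39.9 CPM in mutants and 1.98 to 5.35 CPM in wild type), where 6.83% and 2.7% of all genes tested were called. Of 5 pharynx markers, 1 (*pha-4*) was higher in mutants at 20 °C and 0 were called after heat shock. Of the 5 hypodermis, 4 germ line and 4 neuron markers, 0 were called between genotypes at 20 °C or after heat shock. The part of these markers in the *cdr-2* difference was not tested.

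*cdr-6* lay between 24.3 and 46.1 CPM in all 12 libraries and had the smallest spread within groups of the 7 genes. It had 32.7, 24.3 and 29.2 CPM in heat-shocked mutants, against 46.1, 41.6 and 42.2 CPM in mutants at 20 °C. In wild type it had 33.8, 34.0 and 31.6 CPM after heat shock, against 37.5, 37.7 and 38.9 CPM at 20 °C. The heat-shocked libraries lay below the controls in both genotypes, by -0.59 on the log2 scale in mutants (SE 0.17) and -0.20 in wild type (SE 0.17). Such groups without overlap, in either direction, were found for 12.04% of all genes tested in mutants and 14.0% in wild type. At 20 °C the mutants lay above wild type without overlap, where 29.8% of all genes tested had none. The difference of 0.19 on the log2 scale did not pass the test (SE 0.17, edgeR adjusted p = 0.557) and changed sign when libraries were left out. After heat shock it was -0.21 (SE 0.17, edgeR adjusted p = 0.580).

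*cdr-7* and *cdr-1* were low. *cdr-7* had 9.99, 4.66 and 8.15 CPM in heat-shocked mutants and 5.90, 5.78 and 6.41 CPM in heat-shocked wild type; at 20 °C it had 5.80, 5.21 and 6.16 CPM in mutants and 4.11, 4.78 and 6.17 CPM in wild type. *cdr-1*, the gene from which the family takes its name, had 2.85, 0.214 and 0.820 CPM in heat-shocked mutants and 1.22, 0.342 and 0.484 CPM in heat-shocked wild type. At 20 °C *cdr-1* had 3.01, 0.569 and 1.06 CPM in mutants and 0.594, 0.798 and 1.71 CPM in wild type. Neither gene differed between genotypes beyond the spread of the libraries (edgeR adjusted p 0.613 to 0.766).

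The *cdr* genes other than *cdr-1* lie together on the minus strand of chromosome V (WBcel235). *cdr-4* spans V:12407366-12408625, *cdr-7* V:12410879-12412113, *cdr-6* V:12412487-12413701 and *cdr-2* V:12414656-12415709. The cluster also holds *hrg-2* and *cdr-3*, making 6 annotated genes in 10012 bases, separated by gaps of 365 to 954 bases and with no gene overlapping another. *cdr-1* lies apart on the plus strand at V:15921309-15922820. The heat response of the neighbours of *cdr-4* was smaller in these libraries: *hrg-2*, named here for its place after its values were seen, differed by -0.16 on the log2 scale in mutants (SE 0.50) and by -0.05 in wild type (SE 0.50), and *cdr-7* by 0.41 in mutants (SE 0.29) and 0.26 in wild type (SE 0.29).

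*cdr-3*, a family member at V:12416358-12417377 that is not among the 8 symbols, was read in heat-shocked mutants alone. It had 24, 16 and 12 reads in the heat-shocked mutants and 0 reads in the 9 other libraries. Against a floor of 3 reads over a group this was at least 21.2-fold higher than in heat-shocked wild type and at least 19.4-fold higher than in mutants at 20 °C. It passed the filter on low counts only through the heat-shocked mutants, the group where it is high, so neither these bounds nor a test of it support a difference. With so few reads it did not pass the test between genotypes after heat shock (edgeR adjusted p = 0.137) or between heat-shocked and control mutants (edgeR adjusted p = 0.374).

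**Figure D2:**
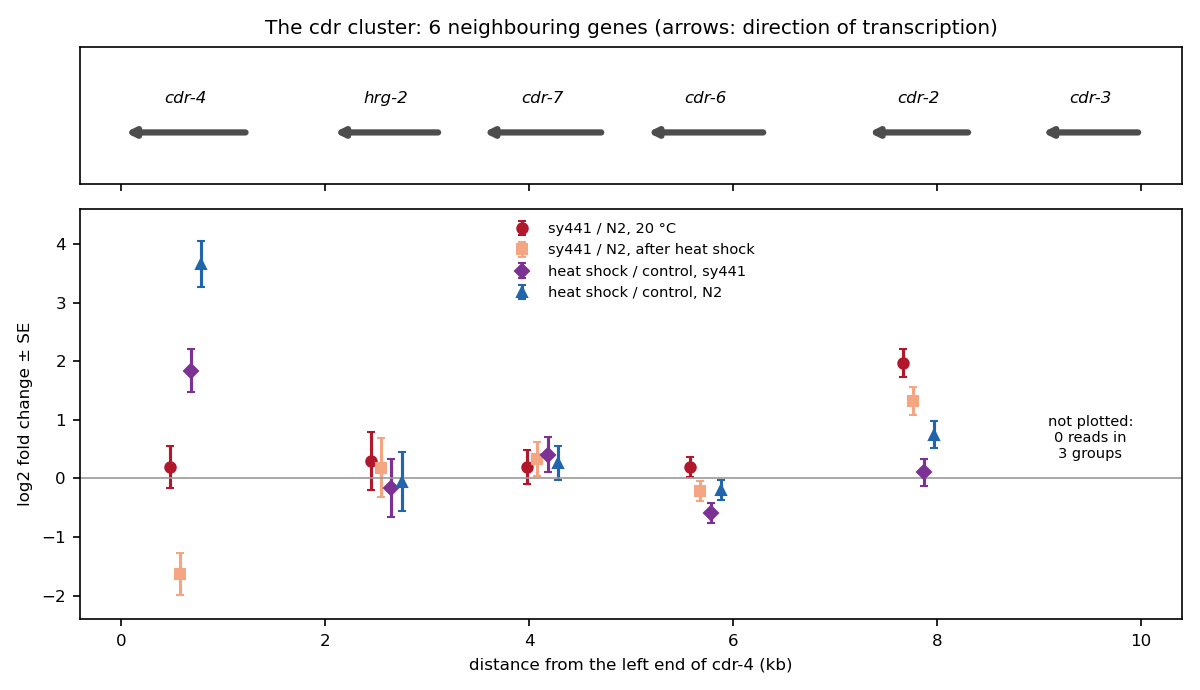
The upper panel shows the 6 genes of the cluster on chromosome V as arrows in the direction of transcription, by distance in kb from the left end of *cdr-4*. The lower panel shows the log2 fold change ± SE of each gene in 4 comparisons, with *cdr-4* at 3.66 for heat shock in wild type and *cdr-2* at 1.96 for mutants against wild type at 20 °C; *cdr-3* has no reads in 3 groups and is not plotted.

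The metallothionein genes varied more between replicates than between groups. *mtl-1* (V:6691371-6691863, minus strand) had 30.2, 3.80 and 6.80 CPM in heat-shocked mutants and 12.7, 1.11 and 1.83 CPM in heat-shocked wild type. At 20 °C *mtl-1* had 14.1, 2.17 and 3.18 CPM in mutants and 2.15, 1.51 and 9.09 CPM in wild type. One library of each group was far above the others. The difference between mutants and wild type was 1.39 on the log2 scale after heat shock (SE 1.06, edgeR adjusted p = 0.542) and 0.61 at 20 °C (SE 1.04, edgeR adjusted p = 0.797).

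*mtl-2* (V:14018270-14018673, minus strand) was high in the same libraries. It had 49.5, 7.56 and 10.6 CPM in heat-shocked mutants and 45.6, 6.91 and 11.6 CPM in heat-shocked wild type. At 20 °C *mtl-2* had 57.7, 18.6 and 19.7 CPM in mutants and 12.5, 16.6 and 97.3 CPM in wild type. The groups overlapped, with a difference of 0.08 on the log2 scale after heat shock (SE 0.97, edgeR adjusted p = 0.983) and -0.40 at 20 °C (SE 0.97, edgeR adjusted p = 0.865).

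The libraries highest in *mtl-1* and *mtl-2* were those lowest on the second principal component of their group, and *cdr-1* was highest in them too, a pattern noticed from these values. Of 12644 genes with a mean of at least 1 CPM, 9.59% were highest in these same 4 libraries. The spread within groups was 1.55 for *mtl-1*, 1.37 for *mtl-2* and 1.23 for *cdr-1* (pooled SD of log2 CPM), above that of 98.1% to 99.3% of these genes, whose median was 0.38. Germ line markers summed to 944 CPM in replicate 3 of wild type at 20 °C and to 1351 CPM in replicate 1 of heat-shocked wild type, against 1471 to 2362 CPM in the other libraries. Hypodermis sums were lowest of their group in all 4 (in mutants at 20 °C, 274 against 467 and 443 CPM). These sums were mostly *col-19*, which had 238 to 439 CPM in mutants at 20 °C. The highest value of any other hypodermis marker there was 14.6 CPM (*dpy-7*), so the sums do not show the rank of the other markers. Pharynx and neuron sums were highest (pharynx there 129 against 34.1 and 58.0 CPM), by little in heat-shocked wild type (pharynx 79.1 against 66.3 and 78.6 CPM). Germ line, intestine, body wall muscle and sperm sums shared no such rank (germ line in mutants at 20 °C 1958 CPM in replicate 1, against 1772 and 1485 CPM). The part of these differences between libraries in the metallothionein values was not tested.

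Reads of *mtl-2* per read of *mtl-1* were steadier than either level. The ratio was 1.64, 1.99 and 1.56 in heat-shocked mutants and 4.09, 8.60 and 6.19 in mutants at 20 °C. It was 3.60, 6.23 and 6.32 in heat-shocked wild type and 5.80, 10.96 and 10.7 in wild type at 20 °C. The heat-shocked mutants thus lay below the other 9 libraries. The ratio was looked at after the values of both genes were seen and is given without a test. In mutants, libraries with the same replicate number deviated together, though no label states a pairing. By number, heat shock there gave 2.14, 1.76 and 2.14 times the *mtl-1* of the control and 0.858, 0.406 and 0.539 times the *mtl-2*. In wild type these values were 5.89, 0.733 and 0.201 for *mtl-1* and 3.65, 0.417 and 0.119 for *mtl-2*.

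**Figure D3:**
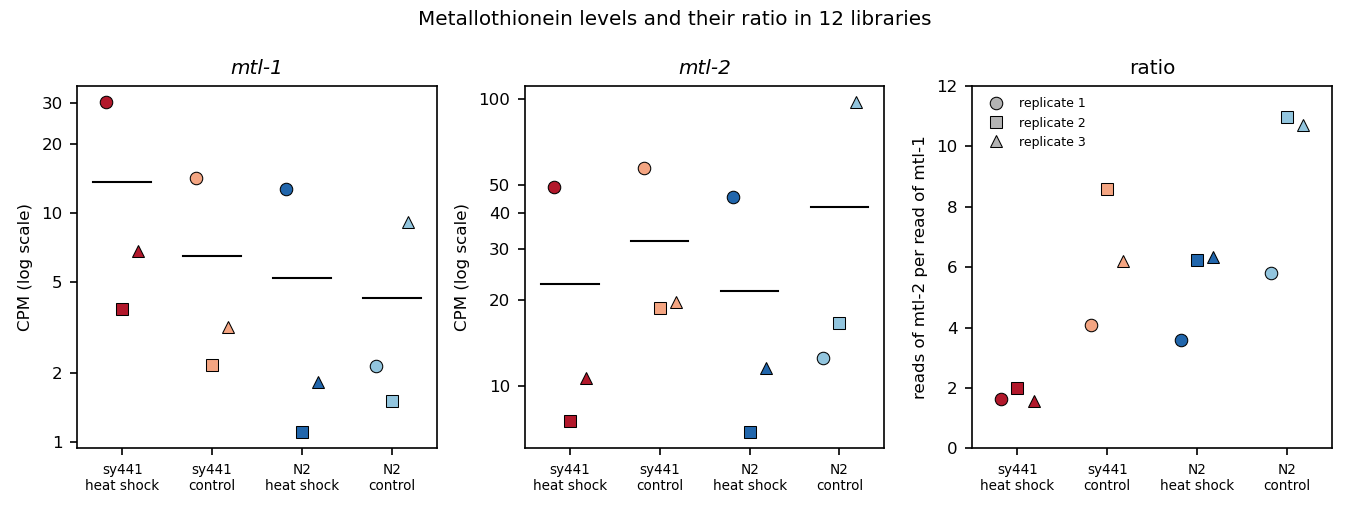
CPM (log scale) of *mtl-1* and *mtl-2* in the 12 libraries, with a line at each group mean, and the reads of *mtl-2* per read of *mtl-1* (linear scale), with 1 point per library. In each group 1 library lies far above the others for both genes, and the ratio is 1.56 to 1.99 in heat-shocked mutants and 3.60 to 10.96 in the other groups.

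Per kb of exon, the order of the mean levels in wild type at 20 °C was *mtl-2* (36.0 to 280 CPM per kb), *cdr-6* (40.6 to 42.1), *cdr-4* (9.92 to 32.2), *mtl-1* (4.06 to 24.4), *cdr-2* (6.91 to 8.64), *cdr-7* (3.98 to 5.97) and *cdr-1* (0.627 to 1.80). Of the neighbours in this order, *mtl-2* and *cdr-6*, *cdr-4* and *mtl-1*, and *mtl-1* and *cdr-2* overlapped. In heat-shocked wild type *cdr-4* came first with 234 to 272 CPM per kb, above the 19.9 to 132 CPM per kb of *mtl-2*. In heat-shocked mutants *cdr-4* had 75.5 to 82.7 CPM per kb, within the range of *mtl-2* (21.8 to 143 CPM per kb).

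Counted over the 7 genes, 1 (*cdr-2*) was called between genotypes at 20 °C at an adjusted p under 0.05, where 6.83% of all genes tested were called. After heat shock *cdr-2* was the 1 called of the 6 members other than *cdr-4*, where 2.7% of all genes were called. The median difference between mutants and wild type was 0.20 on the log2 scale at 20 °C, against 0.13 over all genes, and 0.33 after heat shock, against 0.04 over all genes. These medians and the count over the 7 genes hold *cdr-4*, whose own difference is the 0.20, so nothing is read from them. For heat shock against control 0.568% of all genes were called in mutants and 1% in wild type; the 1 member past the threshold in each was *cdr-4*, which was picked on this contrast, so nothing is read from it. In the interaction 0 of the 6 other members were called by edgeR or by DESeq2, and 0 had an unadjusted p under 0.05 with either tool, where 0.0111% of all genes were called by edgeR.

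**Figure D4:**
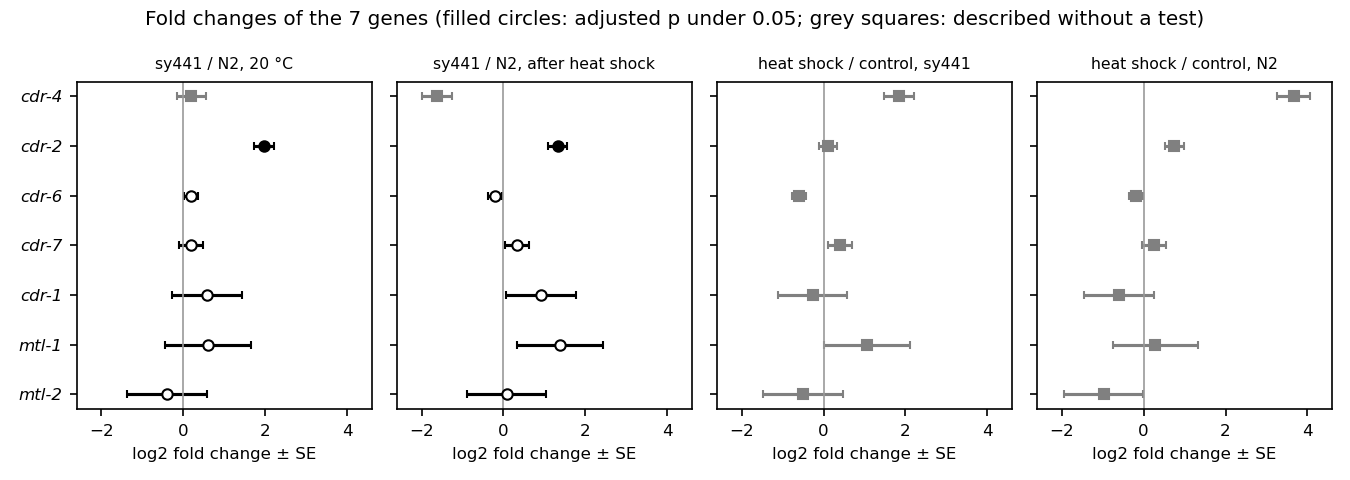
Log2 fold change ± SE of the 7 genes for mutants against wild type, first at 20 °C and then with heat shock, and for heat shock against control in mutants and in wild type. Filled circles passed an adjusted p under 0.05, open circles did not, and grey squares (heat shock values and all of *cdr-4*) are described without a test; *cdr-2* is the filled one, at 20 °C and after heat shock.

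Other genes of metal handling were read from a list of 26, all of which were tested. At 20 °C 5 were higher in mutants and 0 were lower, with a median log2 fold change of 0.56, against 0.13 over all genes, where 6.83% of all genes tested were called (1120 higher and 106 lower). They were the ABC transporters *mrp-1* (0.80, edgeR adjusted p = 0.0203), *mrp-3* (1.20, edgeR adjusted p = 0.0407) and *pgp-3* (1.47, edgeR adjusted p = 0.0437), the zinc transporter *zipt-2.1* (1.26, edgeR adjusted p = 0.0427) and, named after its value was seen, the ferritin gene *ftn-1* (1.99, edgeR adjusted p = 0.0452). DESeq2 called 6 of the list, edgeR called 1 with RLE factors and 0 with only the groups compared in the fit. The share of all genes called in these other fits is not given here. With 1 library left out the count was 0 to 2, and it was 0 without replicate 1 or 2 of wild type or replicate 1 or 3 of the mutants.

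After heat shock 0 of the 26 were called between genotypes by edgeR, with 12 at an unadjusted p under 0.05 (11 higher and 1 lower in mutants), and DESeq2 called 5, all higher. In other edgeR fits 2 were called with the replicate block (*smf-3* and *ftn-1*) and 2 with the newer quasi-likelihood form (*mrp-2* and *ftn-1*). The median was 0.50, against 0.04 over all genes. For heat shock against control, 0 of the 26 were called in either genotype by edgeR fitted to all 12 libraries. In mutant libraries alone, paired by replicate number, it called 3 (*numr-1* and *numr-2* higher, *hizr-1* lower). That fit was chosen after seeing the data. *numr-1* and *numr-2* may share reads, and *numr-1* ran from 5.90 to 255 CPM in heat-shocked mutants. DESeq2 called 1 in mutants (*hizr-1*, lower) and 1 in wild type (*aip-1*, higher), and edgeR on all libraries had 3 in mutants and 1 in wild type at an unadjusted p under 0.05. The share of all genes called is not given for DESeq2 or the other edgeR fits, so nothing is read from their counts. *hizr-1*, the zinc-binding nuclear receptor that activates zinc-responsive genes, differed between mutants and wild type by 0.50 on the log2 scale at 20 °C (edgeR adjusted p = 0.546) and by -0.10 after heat shock (edgeR adjusted p = 0.956). *elt-2*, the intestinal GATA factor, differed by 1.15 at 20 °C (edgeR adjusted p = 0.0835) and by 0.89 after heat shock (edgeR adjusted p = 0.231), and neither gene passed the test.

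The genes whose profile over the 12 libraries was most like that of *cdr-4* were *Y94H6A.10*, *K08D8.12*, *Y38F1A.4*, *spe-47* and *hsp-17*. The root mean square difference of centred log2 CPM from *cdr-4* was 0.39 to 0.65, among 12643 other genes, where the spread of *cdr-4* itself was 1.60. *Y94H6A.10*, the closest, had 130 to 270 CPM in heat-shocked mutants and 47.2 to 132 CPM in mutants at 20 °C, and 598 to 843 CPM in heat-shocked wild type and 27.0 to 68.5 CPM in wild type at 20 °C. For *mtl-1* the nearest were *cyp-13B1*, *D2096.5*, *F21C10.11*, *gst-9* and *lipl-2* (0.53 to 0.72), and for *mtl-2* they were *srx-125*, *F52H2.3*, *cdr-1*, *H23N18.5* and *lbp-7* (0.47 to 0.60). *cdr-1* was thus the member nearest to *mtl-2*, at 0.56.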

How the data were processed

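Raw counts per gene were deposited by the authors for 12 poly(A) libraries, made with FastQC, HISAT2 and HTSeq on WBcel235 per the labels and the methods; versions, strand setting and the handling of reads shared by several genes are not given in the sources used here. Replicates are called biological in the titles, but separate cultures are not stated, so p-values measure the spread between these libraries, which may be technical. The members and lists were chosen with earlier results of these data known.

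Genes were filtered with filterByExpr, scaled by TMM and fitted with 1 mean per group in edgeR 4.0.16 (quasi-likelihood, robust; R 4.3.3); an adjusted p under 0.05 was called. DESeq2 1.42.0 and other settings were alternatives. The method was tested on simulated data. Levels are TMM-scaled CPM, and log2 CPM used a prior count of 2. Named genes were the members, *cdr-3*, up to 4 called genes of the metal list per comparison and the 5 nearest profiles. Columns of no sample were 0. Same-numbered libraries deviated together (correlation over 0.1) in 11 of 18 pairs (correlations -0.62 to 0.55). In all 3 mutant pairs of heat shock and control the correlation was over 0.1, at 0.32 to 0.55. Mutant heat shock and control libraries with different numbers had -0.54 to 0.13. In wild type, control replicate 3 and heat shock replicate 1 reached 0.73 without sharing a number, so these values do not establish a pairing. Promoter and protein sequences were not analysed here.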

Additional observations from a re-analysis of the deposited data

How the results depend on the processing

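Counts of members past the threshold that include *cdr-4*, or that concern heat shock, only show how the fit moves and support nothing, since the set was picked on that response. Between genotypes after heat shock this count was 2 (*cdr-2* and *cdr-4*) in all libraries, 0 to 1 with 1 library left out and 1 without replicate 1 of both mutant groups. For heat shock in mutants it was 1 in all libraries, 0 with 1 library or both mutant replicates 1 left out, and 2 with DESeq2. Mutant libraries alone with the replicate block, chosen after seeing the data, gave 2 there (with *mtl-1* at 1.03 on the log2 scale); the replicate block in all libraries left the counts at 1 at 20 °C and 2 after heat shock. Also chosen after seeing the data, 4 libraries were left out together, which gave 2 for heat shock in mutants. They were picked because *mtl-1*, *mtl-2* and *cdr-1* were highest in them, so no value of these genes is drawn from that fit.

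Signs turned for members that did not pass the test, or had none. At 20 °C, with 1 library or 1 of the planned pairs left out, log2 fold changes between genotypes were -0.52 to 1.19 for *cdr-1*, -0.31 to 0.79 for *cdr-4*, -0.043 to 0.23 for *cdr-6*, -0.12 to 0.39 for *cdr-7*, -0.83 to 1.87 for *mtl-1* and -1.29 to 1.17 for *mtl-2*. After heat shock they were -0.48 to 1.64 for *cdr-1*, -0.019 to 0.44 for *cdr-7*, -0.042 to 3.205 for *mtl-1* and -1.31 to 1.28 for *mtl-2*. In the interaction they were -0.83 to 1.31 for *cdr-1*, -0.071 to 0.46 for *cdr-7*, -0.51 to 2.65 for *mtl-1* and -1.12 to 1.72 for *mtl-2*. Without replicate 1 of both mutant groups they were -0.46 (*cdr-1*), -0.09 (*cdr-4*) and -0.81 (*mtl-1*) at 20 °C, -0.42 (*cdr-1*), -0.017 (*mtl-1*) and -1.27 (*mtl-2*) after heat shock, and -0.0043 (*cdr-7*) in the interaction. Without replicate 3 of wild type at 20 °C and replicate 1 of heat-shocked wild type, *mtl-2* was 1.14 at 20 °C and *cdr-7* -0.05 in the interaction, and *cdr-7* was -0.22 there without all 4. The cause was not tested. With 3 libraries a group, 1 of which stood apart in each, differences in *mtl-1*, *mtl-2* and *cdr-1* had standard errors near 1 on the log2 scale, so changes of several fold could not be called.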
